A study of Mus musculus with 58 samples.

Results

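Quadriceps muscle from mice without a working Mbnl1, a gene for a splicing regulator, was compared with quadriceps of wild-type mice of the background strain, FVB. The 10 arrays of experiment 3 were taken by their titles: 5 titled as Mbnl1-null and 5 as the wild type run beside them, of 58 arrays and 34 mice in the whole series. All 10 mice were males of 3 months. The null mice were Mbnl1 knockouts on an FVB background, and neither group had any treatment besides the constitutive genetic change. Each mouse gave total RNA from its quadriceps to 1 Affymetrix expression array, on which each gene is read by one or several sets of short probes (probe sets). A knockout of this kind affects every cell of the animal, and the muscle was profiled whole. Mice are numbered 1 to 5 in each group, and the labels do not say whether equal numbers pair mice of the groups. The labels give no litter, culture or processing day, so p-values measure the spread between these mice.

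MBNL1 (muscleblind-like 1) is an RNA-binding protein that directs the change from fetal to adult splicing in muscle and also acts on the stability and localisation of mRNA. In myotonic dystrophy, expanded CUG repeat RNA binds muscleblind proteins and takes them away from their targets, and loss of Mbnl1 gives mice the myotonia and part of the splicing changes of the disease. An array of this type reads transcript levels, not splice forms, so a gene whose splicing depends on MBNL1 can keep its level.

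The deposited intensities were put on the log2 scale, and a change is the null mean minus the wild-type mean, so a change of 1 is a doubling. Values in brackets after a gene are this change and its standard error (SE) from a limma fit over 5 null and 5 wild-type mice. A gene was called higher or lower at an adjusted p (Benjamini-Hochberg) under 0.05, and was tested if it reached an intensity of 32, a log2 level of 5, on at least 5 of the 10 arrays. The arrays looked alike in the share of probe sets that reached that floor, 35.7% to 36.4% on each. Median intensities ran from 9.559 to 11.62, with null mouse 5 highest (9.559 to 10.05 in the other null mice). Null mice correlated with each other at 0.973 to 0.99, wild types with each other at 0.985 to 0.992, and null with wild type at 0.96 to 0.976, over the tested genes, which are not independent. A principal component with 43.6% of the variance separated the genotypes. A further one with 20.7% set null mouse 5 apart, with wild-type mouse 5 next to it. The 10 fibre genes used as a tissue check (Acta1, Ckm, Myh4, Myh1, Tnnt3, Mylpf, Des, Ttn, Ryr1 and Mb) had a mean log2 level of 15.43 to 15.67 in null and 15.44 to 15.6 in wild-type mice, and none of them was called with all mice (2 were called higher without null mouse 1, and 1 without wild-type mouse 4 or 5). In whole muscle, fewer cells of a type and less RNA per cell cannot be told apart.

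Loss of Mbnl1 came with changes in many genes of both directions. Of 8965 genes tested, 1462 were called, 16.3% of all: 728 higher (8.12%) and 734 lower (8.19%). Of these, 177 rose (1.97% of those tested) and 110 fell (1.23%) at least 2-fold. The levels of the groups did not overlap for 1283 genes (14.3% of those tested), and 1085 of the called genes were among them (12.1% of those tested). The median change over all genes tested was -0.005. The median SD of a gene was 0.217 among null and 0.164 among wild-type mice. Gene lists below are described by their counts of called members beside these shares, and no list was tested as a set.

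**Figure D1:**
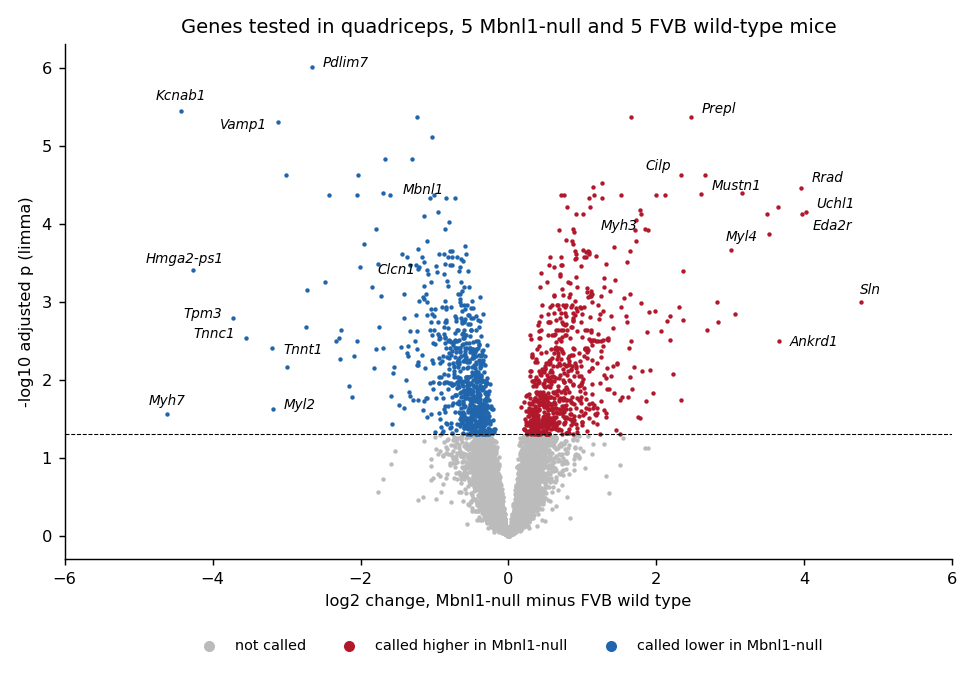
Each point is a gene tested in quadriceps of 5 Mbnl1-null and 5 FVB wild-type mice, by its log2 change (null minus wild type, x axis) and -log10 of its adjusted p from limma (y axis), with genes called higher in red, lower in blue and the dashed line at an adjusted p of 0.05. Sln lay farthest to the right at 4.77, Myh7 farthest to the left at -4.61, and Pdlim7 highest, with an adjusted p of 9.89e-07.

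The targeted gene was read first. The probe set that stands for Mbnl1 gave log2 levels of 13.20, 12.90, 13.18, 13.05 and 13.09 in null mice 1 to 5 and of 13.88, 13.82, 13.76, 13.78 and 13.81 in wild-type mice 1 to 5. Every null mouse lay below every wild type, but the gene stayed among the bright ones (-0.73, SE 0.06, 1.66-fold lower, adjusted p = 4.61e-05). A dim probe set of the gene was under the floor on all 10 arrays, at 2.46 to 2.86 in null and 3.10 to 4.39 in wild-type mice, and the third lay at 2.86 to 3.18 in null and 2.93 to 3.06 in wild-type mice. The labels do not say which part of the gene was removed, and the position of the probes relative to it is not known here, so the remaining signal does not measure how much transcript with an intact reading frame is left.

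Mbnl2, the paralogue with overlapping targets, read 13.30, 13.39, 13.31, 13.22 and 13.32 in null mice and 13.43, 13.55, 13.70, 13.66 and 13.39 in wild types. Its called decrease was small (-0.23, SE 0.07, adjusted p = 0.0436), null mouse 2 reached the lowest wild type, mouse 5, and the call was lost in 7 of 10 fits that left out 1 mouse. These were the fits without null mouse 1, 3, 4 or 5 or wild-type mouse 2, 3 or 4, with adjusted p of 0.0571 to 0.101, and changes over all 10 fits ran from -0.27 to -0.19. Of its other tested probe sets, those at -0.54 and -0.41 were called and that at -0.09 was not. Mbnl3, the third member of the family, was under the floor in every mouse, at 2.55 to 3.01 over its 3 probe sets.

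Changes among splicing regulators were seen in both directions. Of 36 listed, 32 were tested: 7 were lower, Mbnl1 and Mbnl2 among them, and 2 higher (28.1% called beside 16.3% of all genes), with a median change of -0.07. This share includes Mbnl1, the targeted gene itself. Celf2, a CELF protein that opposes muscleblind at many exons, read 11.51, 11.27, 11.15, 11.13 and 10.75 in null and 12.20, 12.18, 12.24, 12.00 and 12.05 in wild-type mice (-0.97, SE 0.12, adjusted p = 0.00041). The groups were apart, but 1 of its 3 other tested probe sets went the opposite way (0.50, called), while the other two were at -0.87 and -1.13. Rbfox1, a regulator of muscle exons through GCAUG elements, ran from 11.81 to 12.57 in null and from 12.66 to 13.15 in wild-type mice (-0.75, SE 0.14, adjusted p = 0.00355). Its probe set at -0.62 was also called and the one at -0.50 was not. Srsf10 (-0.50), the helicase gene Ddx5 (-0.29) and Srsf6 (-0.26) made up the rest of the decreases with Mbnl1 and Mbnl2, and Rbm38 (0.56) and Srsf5 (0.36) were the increases. Ptbp1 (0.13), Celf1 (-0.01) and Rbfox2 (0.01) were not called. The count of 7 was 3 without null mouse 4, without null mouse 5 or without wild-type mouse 2, and 4 without wild-type mouse 1, 3 or 4.

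**Figure D2:**
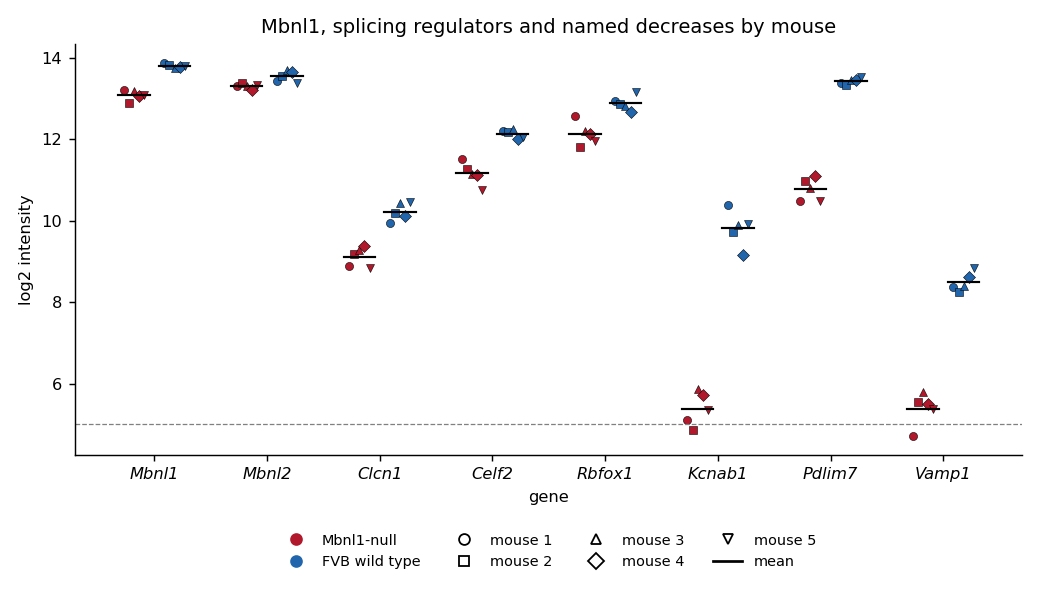
Log2 intensity (y axis) of each mouse for Mbnl1, Mbnl2, Clcn1, the splicing regulators Celf2 and Rbfox1 and the decreases Kcnab1, Pdlim7 and Vamp1, with null mice in red, wild types in blue, a symbol per mouse number, black bars at the group means and the dashed line at the log2 floor of 5. The groups overlap for Mbnl2 and for no other gene shown, and Kcnab1 and Vamp1 lie near the floor in the null mice.

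Most transcripts whose splicing depends on MBNL1 were not called, though the share called was above that of all genes. Of 29 tested, 5 were lower and 2 higher, 24.1% called beside 16.3% of all genes, with a median change of -0.06. The targeted gene Mbnl1 is again counted in this share. Clcn1, the chloride channel that stabilises the resting potential of the fibre membrane and whose loss causes myotonia, read 8.89, 9.19, 9.29, 9.38 and 8.83 in null mice against 9.94, 10.18, 10.43, 10.11 and 10.45 in wild types. All null mice were below all wild types (-1.11, SE 0.14, 2.15-fold lower, adjusted p = 0.000393). Camk2b, a calcium/calmodulin-dependent kinase subunit, rose from 9.61 to 10.04 in wild types to 10.89 to 11.14 in null mice (1.14, SE 0.09, adjusted p = 3.42e-05). Pdlim3, a PDZ-LIM protein of the Z-disc, rose by less (0.50, SE 0.12, adjusted p = 0.0171), and Ldb3, the Z-disc protein also called Cypher or ZASP, fell by 0.32. Camk2g (-0.39) was the remaining decrease besides Mbnl1 and Mbnl2. The gene for the fast calcium pump, Atp2a1 (-0.01), the ryanodine receptor Ryr1 (-0.15), the calcium channel subunit Cacna1s (-0.02), titin (Ttn, -0.06), Bin1 (0.09), Nfix (-0.01) and the insulin receptor Insr (0.17) were not called. The decreases numbered 3 without null mouse 3, 4 or 5 or wild-type mouse 2, 3 or 4.

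Several slow fibre genes were among the 15 largest decreases. Slow-twitch fibres use their own isoforms of the contractile proteins: the heavy chain Myh7, the light chain Myl2, the slow tropomyosin Tpm3 and the slow troponins Tnnc1, Tnnt1 and Tnni1. The promoters of the 3 slow troponins are shown because these genes fell together, and those of Ankrd1 and Myh3, among the increases, are set beside them. They were read from RefSeq (build GRCm38.p6), 5′ to 3′ on the strand of the gene, as the 250 bases before and 50 bases after the start. Capitals mark the matches to 3 motifs: the M-CAT letters CATTCC on both strands, the muscle E-box letters CAGCTG on both strands, and the TATA letters TATAAA on the strand of the gene. Of 32851 windows of this length in the same table, 14.7% hold the M-CAT letters, 16.3% the E-box letters and 8.32% the TATA letters. The windows lie at chr14:31208062-31208361 (Tnnc1, plus strand), chr7:4515926-4516225 (Tnnt1, minus strand), chr1:135799171-135799470 (Tnni1, plus strand, the upstream of 2 windows), chr19:36119795-36120094 (Ankrd1, minus strand) and chr11:67078050-67078349 (Myh3, plus strand).
Tnnc1: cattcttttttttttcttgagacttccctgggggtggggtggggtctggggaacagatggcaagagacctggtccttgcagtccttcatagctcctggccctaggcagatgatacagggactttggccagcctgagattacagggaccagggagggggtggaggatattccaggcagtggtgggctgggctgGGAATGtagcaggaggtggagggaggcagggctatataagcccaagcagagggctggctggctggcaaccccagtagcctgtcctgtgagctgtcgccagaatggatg
Tnnt1: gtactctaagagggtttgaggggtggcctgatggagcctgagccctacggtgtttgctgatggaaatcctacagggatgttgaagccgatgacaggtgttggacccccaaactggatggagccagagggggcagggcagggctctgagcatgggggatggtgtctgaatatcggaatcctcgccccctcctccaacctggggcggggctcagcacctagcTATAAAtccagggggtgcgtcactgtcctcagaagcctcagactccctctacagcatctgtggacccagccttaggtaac
Tnni1: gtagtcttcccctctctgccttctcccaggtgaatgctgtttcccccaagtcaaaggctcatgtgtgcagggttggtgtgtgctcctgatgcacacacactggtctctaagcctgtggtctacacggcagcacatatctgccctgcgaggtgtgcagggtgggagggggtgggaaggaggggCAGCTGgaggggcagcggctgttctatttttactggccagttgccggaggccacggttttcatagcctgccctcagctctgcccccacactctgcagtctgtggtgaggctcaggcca
Ankrd1: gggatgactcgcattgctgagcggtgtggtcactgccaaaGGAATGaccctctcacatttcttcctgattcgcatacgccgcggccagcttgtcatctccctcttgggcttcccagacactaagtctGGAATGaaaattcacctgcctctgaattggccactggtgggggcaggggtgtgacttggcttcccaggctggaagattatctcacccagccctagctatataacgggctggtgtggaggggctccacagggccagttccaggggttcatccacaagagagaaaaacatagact
Myh3: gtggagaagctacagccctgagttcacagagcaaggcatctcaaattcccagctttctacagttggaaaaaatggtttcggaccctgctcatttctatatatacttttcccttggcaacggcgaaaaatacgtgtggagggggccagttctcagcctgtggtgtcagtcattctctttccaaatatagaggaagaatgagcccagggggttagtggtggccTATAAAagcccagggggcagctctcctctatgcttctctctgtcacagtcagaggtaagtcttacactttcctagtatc
The Tnnc1 window holds the M-CAT letters on the opposite strand 58 bases before the start, the Tnnt1 window TATA letters 30 bases before it, and the Tnni1 window the E-box letters 68 bases before it. Ankrd1 has the M-CAT letters at 210 and 123 bases before the start, both on the opposite strand, and Myh3 the TATA letters at 29. No motif is common to the 3 slow troponin windows. A match describes the letters only.

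Myh7, the slow and cardiac myosin heavy chain, read 6.17, 9.79, 9.93, 2.09 and 8.71 in null mice and 12.19, 12.05, 12.07, 11.57 and 11.87 in wild types (-4.61, SE 1.25, 24.5-fold lower, adjusted p = 0.0278). All 5 null mice were below the lowest wild type, null mouse 4 was under the floor, and the SD was 3.30 in null against 0.24 in wild-type mice. The call was lost in 6 of 10 fits that left out 1 mouse: without null mouse 1 (-4.32, adjusted p = 0.0562) and without any of the wild types, at changes of -4.71 to -4.55 and adjusted p of 0.0501 to 0.0596.

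In the other slow isoforms null mice 1 and 4 were again the lowest. Tpm3, which encodes slow tropomyosin, gave 7.43, 9.88, 9.91, 6.54 and 7.91 in null mice and 12.40, 12.20, 12.20, 11.55 and 11.97 in wild types (-3.73, SE 0.58, adjusted p = 0.00164). Tnnc1, the calcium-binding troponin of slow and cardiac muscle, gave 6.99, 9.75, 9.81, 6.24 and 8.48 in null mice and 12.04, 12.01, 11.81, 11.39 and 11.76 in wild types (-3.55, SE 0.62, adjusted p = 0.00296). The null mice lay below all wild types in both genes, with mouse 4 lowest and mice 2 and 3 highest among them. Of the 4 other tested probe sets of Tpm3, 1 fell as well (-3.52), and 3 had changes of 0.10, 0.13 and 0.00 that were not called. The gene makes muscle and non-muscle forms, and which form each probe set reads is not known here.

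Tnnt1, the slow troponin that binds tropomyosin, read 8.07, 9.92, 10.05, 6.46 and 9.59 in null mice against 11.73 to 12.19 in wild types (-3.20, SE 0.59, adjusted p = 0.00397). Myl2, the slow regulatory light chain, read 7.62, 11.76, 11.58, 8.11 and 12.22 against 13.16 to 13.74 (-3.19, SE 0.84, adjusted p = 0.024). Its call was lost without null mouse 4 (-2.65, adjusted p = 0.0524), without wild-type mouse 2 (-3.18, 0.0523) and without wild-type mouse 3 (-3.16, 0.0536). Tnni1, the slow inhibitory troponin, was chosen after its values were seen: it read 8.10, 9.65, 9.54, 7.56 and 9.96 in null mice and 10.96 to 11.44 in wild types (-2.33, SE 0.41, adjusted p = 0.00321). Null mice 1 and 4 were the lowest in each of these, and no null mouse reached a wild type. Atp2a2, the calcium pump of slow fibres, fell least, from 12.20 to 12.77 in wild types to 11.32, 11.86, 11.70, 10.56 and 11.87 in null mice (-1.02, SE 0.23, adjusted p = 0.0107), and its 3 other tested probe sets were called at -1.09 to -0.76.

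**Figure D3:**
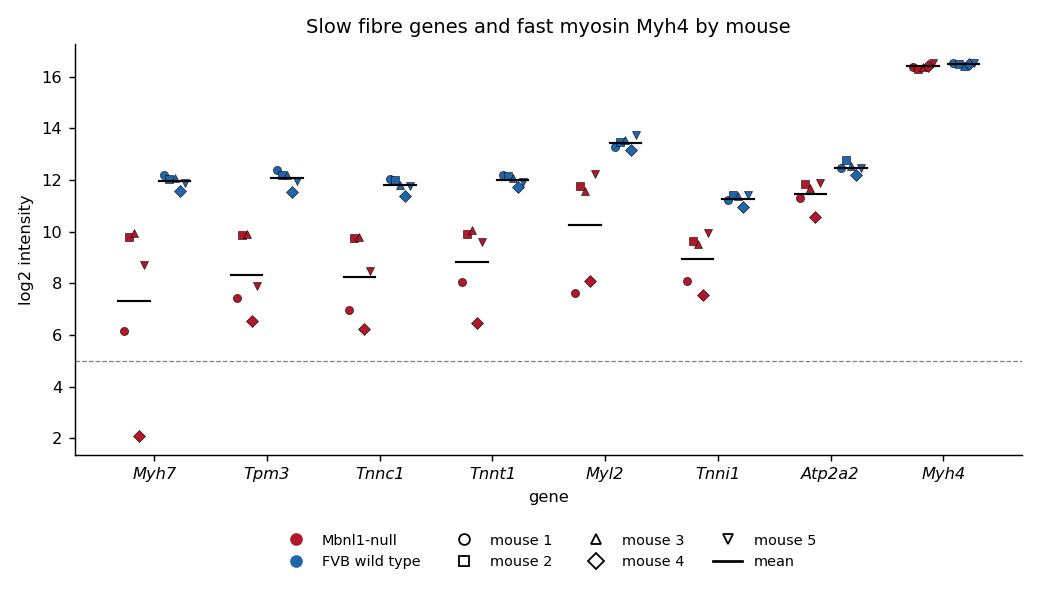
Log2 intensity (y axis) of each mouse for 7 slow fibre genes and the fast myosin heavy chain Myh4, with null mice in red, wild types in blue, a symbol per mouse number, black bars at group means and the dashed line at the log2 floor of 5. Null mice 1 (circle) and 4 (diamond) are the lowest of all mice for each of the 7 slow genes, and Myh4 stays between 16.31 and 16.55 in every mouse.

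The list of slow oxidative fibre genes as a whole was split. Of 21 tested members, 7 fell and 5 rose, 57.1% called beside 16.3% of all genes, and the median change was -0.20. Besides sarcolipin (Sln, 4.77), the increases were Smtnl1 (0.95), Fhl1 (0.56), Actn2 (0.52) and Mybpc1 (0.42), which encode a smoothelin-like protein, a LIM protein, an actinin of the Z-disc and a myosin-binding protein. Myl3, the slow essential light chain, had a change of -1.05 and was not called (adjusted p = 0.195). The mean log2 level of the list was 10.45 and 10.30 in null mice 1 and 4, 11.72 to 11.89 in the other null mice and 11.52 to 11.99 in wild types. With null mice 1 and 4 both left out, 7 members were still lower and 10 were higher. Without null mouse 1 alone the increases also numbered 10, and without null mouse 3 or wild-type mouse 2 they numbered 3.

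Fast fibre genes hardly moved. Of 24 tested, 2 were lower and none higher, 8.33% called beside 16.3% of all genes, with a median of -0.08. Without null mouse 1 or wild-type mouse 4, 1 was higher. Gpd1, cytosolic glycerol-3-phosphate dehydrogenase, fell by 0.70 (SE 0.13, adjusted p = 0.00395) and the thin filament capping protein Tmod4 by 0.27 (SE 0.06, adjusted p = 0.0153). The call of Tmod4 was lost when the arrays were shifted to a common median (adjusted p = 0.0887). Myh4, the IIB heavy chain, read 16.31 to 16.54 in null and 16.42 to 16.55 in wild-type mice (-0.09, adjusted p = 0.256), and Myh1 (0.15) and Myh2 (-0.03), the IIX and IIA heavy chains, were not called.

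Sarcolipin, a small membrane protein that inhibits the calcium pump of the sarcoplasmic reticulum, gave the largest increase. Sln read 14.37, 11.02, 10.90, 10.89 and 11.02 in null mice and 7.94, 6.49, 7.42, 7.03 and 5.44 in wild types (4.77, SE 0.68, 27.3-fold, adjusted p = 0.000997). Null mouse 1 stood far above the other 4, and the lowest null mouse was still above the highest wild type. Leaving out 1 mouse or changing the processing gave changes of 4.09 to 5.04. Rrad, a small GTPase that restrains voltage-gated calcium channels, read 7.33, 8.62, 6.93, 7.12 and 6.72 in null mice, while all wild types were under the floor at 2.97 to 3.71. Set against the floor this is at least 5.07-fold higher (adjusted p = 3.44e-05). Rrad passed the filter on low values only through the null mice, so it had to differ, and its p is no independent support.

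Calcium handling and excitation-contraction coupling genes changed in both directions. Of 40 tested, 4 rose (Sln, Rrad, Camk2b and Cacng1) and 7 fell, 27.5% called beside 16.3% of all genes, with a median of -0.03. Cacng1, the gamma subunit of the muscle calcium channel, rose by 0.93 on the log2 scale. The decreases were Atp2a2, myoregulin (Mrln, -0.98), another small inhibitor of the calcium pump, the kinase subunits Camk2a (-0.59) and Camk2g (-0.39), the junctophilins Jph2 (-0.44) and Jph1 (-0.30), which tie the T-tubule to the reticulum, and the calcineurin subunit Ppp3cb (-0.29).

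Channels and pumps of the fibre membrane held one of the largest decreases of all. Kcnab1, a beta subunit of voltage-gated potassium channels, read 5.11, 4.86, 5.86, 5.72 and 5.36 in null mice and 10.38, 9.72, 9.89, 9.16 and 9.91 in wild types (-4.43, SE 0.24, 21.6-fold lower, adjusted p = 3.59e-06). The gap between the groups was over 3 log2 units. A second probe set was called lower too, but it lay under the floor in all null mice (2.25 to 2.59) and at 5.13 to 7.71 in wild types, so it gives only a bound. Atp1b4, a muscle protein of the sodium pump beta subunit family, read 10.50, 11.64, 10.40, 11.05 and 10.34 in null mice and 6.22 to 7.81 in wild types (3.65, SE 0.33, adjusted p = 6.04e-05). The sodium-calcium exchanger Slc8a3 rose (1.05, SE 0.19), as did the potassium channels Kcnc1 (0.87), Kcnc4 (0.78) and Kcna7 (0.48). Besides Kcnab1 and Clcn1, the sodium channel subunit Scn4b (-0.58) and the calcium-activated potassium channel Kcnma1 (-0.53) fell. In all, 5 of 25 tested members rose and 4 fell (36.0% called beside 16.3% of all genes, median 0.12).

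**Figure D4:**
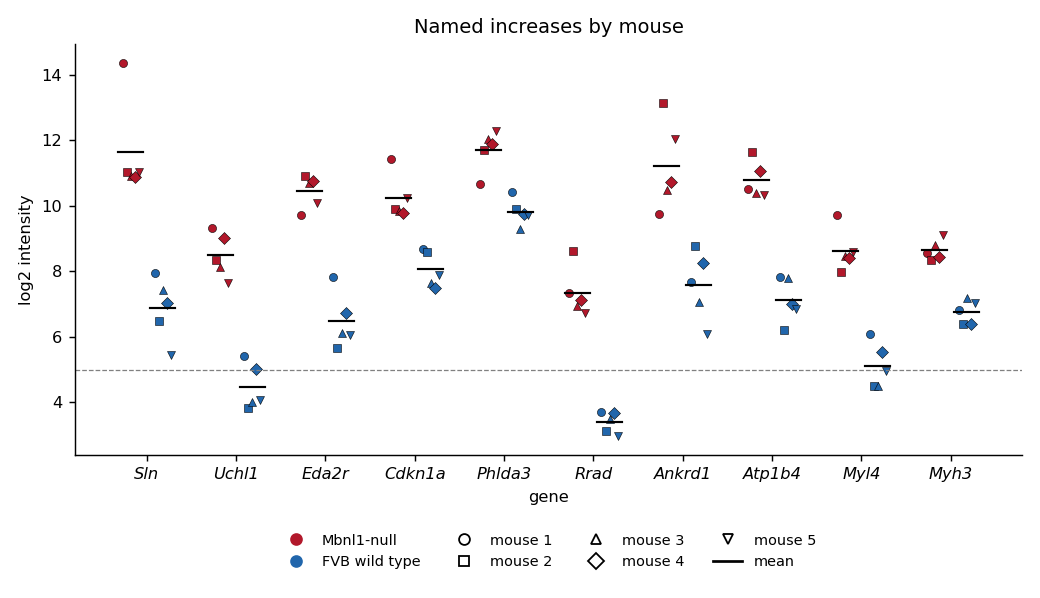
Log2 intensity (y axis) of each mouse for 10 genes called higher in Mbnl1-null muscle, with null mice in red, wild types in blue, a symbol per mouse number, black bars at group means and the dashed line at the log2 floor of 5. The groups do not overlap for any gene shown, null mouse 1 stands above the other null mice for Sln and Cdkn1a, and null mouse 2 is highest for Rrad, Ankrd1 and Atp1b4.

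Of 23 tested genes of embryonic muscle and myogenic factors, 8 rose, 1 fell and 14 were not called. The share called was 39.1% beside 16.3% of all genes, with a median of 0.18. Myl4, the embryonic and atrial light chain, read 9.73, 7.98, 8.47, 8.41 and 8.58 in null mice and 6.08, 4.5, 4.5, 5.54 and 4.96 in wild types (3.52, SE 0.36, adjusted p = 0.000136). Myh3, the embryonic myosin heavy chain, read 8.57, 8.33, 8.80, 8.45 and 9.09 against 6.81, 6.40, 7.19, 6.38 and 7.02 (1.89, SE 0.19, adjusted p = 0.000122). The groups were apart for both genes, and 3 of 5 wild types were under the floor for Myl4. The neonatal heavy chain Myh8 rose too (1.46, SE 0.29, adjusted p = 0.00611), as did the cell adhesion gene Ncam1 (1.60, SE 0.19) and the imprinted non-coding RNA Meg3 (1.59, SE 0.25). Of 4 other tested probe sets of Meg3, 2 were called, and their changes ran from 0.31 to 1.95. Igf2 (0.79), Mef2d (0.29) and Myf6 (0.21) completed the increases, and the transcription factor gene Mef2a (-0.36) was the decrease. Myod1 (-0.20), Myog (0.45) and Actc1 (-0.55), genes of satellite cell differentiation and of fetal actin, were not called.

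Denervation and neuromuscular junction genes included 5 increases and no decrease among 22 tested (22.7% called beside 16.3% of all genes, median 0.25). Uchl1, a ubiquitin hydrolase that is abundant in neurons, read 9.33, 8.33, 8.13, 9.03 and 7.64 in null mice and 5.41, 3.84, 4.00, 5.03 and 4.08 in wild types (4.02, SE 0.38, adjusted p = 6.98e-05). The groups were more than 2 log2 units apart, and 3 of the 5 wild types were under the floor, so the size of the change rests partly on values there. Agrin (Agrn, 0.63, SE 0.11), the organiser of acetylcholine receptor clusters, and the receptor subunit Chrnb1 (0.52) rose with Ncam1 and Cdkn1a. Chrna1 (0.18), Musk (-0.22), Myog and Chrne (0.02) were not called. The increases numbered 8 without null mouse 5, and 1 member was lower without null mouse 1 or wild-type mouse 3. Of 7 tested markers of nerve and Schwann cells, whose mean level was 9.305 to 9.564 in null and 9.235 to 9.557 in wild-type mice, none was called.

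Among p53 targets and genes of cell cycle arrest, 4 of 16 tested rose and none fell (25.0% called beside 16.3% of all genes, median 0.13). Eda2r, a receptor for ectodysplasin A2 in the tumour necrosis factor receptor family, read 9.73, 10.92, 10.70, 10.77 and 10.10 in null mice and 7.82, 5.67, 6.11, 6.74 and 6.06 in wild types (3.96, SE 0.38, 15.6-fold, adjusted p = 7.5e-05). Cdkn1a, the cell cycle inhibitor p21, read 11.43, 9.92, 9.84, 9.79 and 10.24 against 8.67, 8.59, 7.64, 7.48 and 7.90 (2.19, SE 0.34, adjusted p = 0.00152). Phlda3, an inhibitor of Akt, read 10.66, 11.69, 12.04, 11.89 and 12.27 against 10.42, 9.89, 9.28, 9.74 and 9.71 (1.90, SE 0.29, adjusted p = 0.00136). The groups were apart for all 3, narrowly for Phlda3 through mouse 1 of each group. Sesn1 was called at 0.55 (SE 0.17, adjusted p = 0.0478), overlapped between groups, and kept the call only without null mouse 5 or wild-type mouse 1 among the 10 fits without 1 mouse, with adjusted p of 0.0623 to 0.111 in the other 8. The 2 other tested probe sets of Sesn1 were not called (0.53 and 0.60). Mdm2 (-0.35), Ccng1 (-0.07) and Zmat3 (-0.05), which encode the ubiquitin ligase of p53, cyclin G1 and a p53-induced zinc finger protein, were not called.

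Sarcomere, Z-disc and costamere genes rose in 10 of 34 tested and fell in 2 (35.3% called beside 16.3% of all genes, median 0.21). Ankrd1, a stretch-responsive protein that binds titin, read 9.76, 13.13, 10.47, 10.74 and 12.03 in null mice and 7.66, 8.78, 7.06, 8.26 and 6.10 in wild types (3.65, SE 0.64, adjusted p = 0.0032). Mustn1, a small nuclear protein of the musculoskeletal system, read 12.94, 14.31, 13.53, 13.82 and 13.88 against 10.88 to 11.43 (2.61, SE 0.22, adjusted p = 4.11e-05). In both genes null mouse 1 was the lowest and null mouse 2 the highest of the null group, and the groups did not overlap. Flnc, the muscle filamin, read 11.65 in null mouse 1 and 12.81 to 13.86 in the others, with wild types at 11.30 to 11.94 (1.19, SE 0.32, adjusted p = 0.0267). The groups overlapped through null mouse 1. The call was lost without null mouse 3, 4 or 5 or wild-type mouse 2, 3 or 5, with adjusted p of 0.0502 to 0.0672.

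Pdlim7, a PDZ-LIM protein of the Z-disc also known as Enigma, fell with the smallest adjusted p of all genes. It read 10.48, 10.98, 10.79, 11.10 and 10.49 in null mice and 13.37, 13.33, 13.46, 13.46 and 13.52 in wild types (-2.66, SE 0.12, 6.31-fold lower, adjusted p = 9.89e-07). The spread within each group was small beside the gap, and a second probe set was called at -1.33. Lmod2 (1.14), which lengthens thin filaments, the kelch protein Klhl41 (0.83), Synpo2l (0.44) and Smpx (0.29) rose with Pdlim3, Actn2 and Fhl1. Csrp3 (1.89, adjusted p = 0.0742), Ankrd2 (1.31, 0.174) and Xirp1 (1.14, 0.0898), all known to respond to stretch or stress, did not pass. In each of those 3, null mouse 1 read lower than null mice 2 to 5. The mean log2 level of the list was 12.94 in null mouse 1, 13.42 to 13.79 in the other null mice and 12.91 to 13.05 in wild types, and the increases numbered 16 without null mouse 1. The decreases numbered 1 without null mouse 1 or 4 or wild-type mouse 3, 4 or 5.

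In the dystrophin complex and its links to the matrix, 4 of 15 tested rose and none fell (26.7% called beside 16.3% of all genes, median 0.19). Sntb1, beta-1 syntrophin, read 7.34, 9.31, 7.21, 8.26 and 8.10 in null mice and 5.31 to 5.95 in wild types (2.31, SE 0.34, adjusted p = 0.00117). Of 4 other tested probe sets, 3 were called, and their changes ran from 0.48 to 3.47, all higher. Itgb1, the beta-1 integrin (0.61, SE 0.09, adjusted p = 0.000825), and sarcospan (Sspn, 0.60, SE 0.13, adjusted p = 0.00901) rose less. Another probe set of Sspn was not called (0.35). The laminin gene Lama2 was called at 0.25 (adjusted p = 0.0468), but in none of the 10 fits without 1 mouse (adjusted p 0.0509 to 0.096). Dmd (0.18), Sgca (0.32) and Aqp4 (0.09) were not called.

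Matrix genes moved upward. Of 38 collagens and other extracellular matrix genes tested, 12 rose and none fell, 31.6% called higher beside 8.12% of all genes, and the median change was 0.36 beside -0.005. Cilp, a cartilage intermediate layer protein found in tendon and fascia, read 11.97, 12.30, 12.01, 12.18 and 11.38 in null mice and 9.63, 9.31, 9.75, 10.02 and 9.44 in wild types (2.34, SE 0.18, 5.06-fold, adjusted p = 2.38e-05). Periostin (Postn), a matricellular protein of remodelling tissue, read 10.28 to 11.22 against 8.82 to 9.80 (1.39, SE 0.21, adjusted p = 0.00151). Biglycan (Bgn), a small proteoglycan, read 11.65 to 12.01 against 10.40 to 10.96 (1.04, SE 0.12, adjusted p = 0.00023). None of these overlapped between groups. Col8a1 (1.32), Col4a1 (0.64), Col4a2 (0.43), Col6a1 (0.50), Lum (0.47), Loxl1 (0.51), Mmp2 (0.58), Lamc1 (0.37) and Lama2 completed the increases. The main fibrillar collagen genes Col1a1 (0.25), Col1a2 (0.08) and Col3a1 (0.22) were not called. The count of 12 depended on the mice: it was 5 without null mouse 4, wild-type mouse 2 or wild-type mouse 5, 6 without null mouse 2 or 3, and 7 without wild-type mouse 1 or 3.

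Markers of fibroblasts and tendon moved with the matrix genes. Of 17 tested, 6 rose (Cilp, Col14a1, Tppp3, Thbs4, Comp and Lum) and 1 fell (Chad, -0.51), 41.2% called beside 16.3% of all genes, with a median of 0.29. No member was lower in 8 of the 10 fits without 1 mouse, the exceptions being those without null mouse 3 or wild-type mouse 1. Their mean log2 level ran from 10.29 to 10.78 in null and from 9.867 to 10.28 in wild-type mice. Col14a1, a collagen of fibril surfaces, read 9.83, 9.78, 9.66, 9.54 and 8.48 in null mice and 7.82 to 8.38 in wild types (1.33, SE 0.23, adjusted p = 0.00298). Tppp3, which marks tendon sheath cells, rose by 0.98 (SE 0.16), and thrombospondin-4 (Thbs4) by 0.70 (SE 0.11). Pdgfra (0.51) and Tnmd (0.29), defining markers of fibro-adipogenic and tendon cells, and Fmod (0.10), the brightest marker at 13.12 to 13.72, were not called. Lists of matrix genes and of these markers share Cilp, Lum and Fmod. The part of connective tissue content in the matrix result was not tested.

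Macrophage and leukocyte markers were mixed. Of 28 listed, 27 were on the array and 14 passed the floor. Of these 14, 3 rose and 1 fell (28.6% called beside 16.3% of all genes, median 0.37), and the mean log2 level ran from 8.509 to 9.536 in null and from 8.201 to 8.855 in wild-type mice. Cd68, a lysosomal glycoprotein of macrophages, read 8.63, 9.74, 8.15, 8.42 and 7.89 in null mice and 6.12, 7.08, 6.58, 7.67 and 5.80 in wild types (1.91, SE 0.40, adjusted p = 0.00745). The mannose receptor Mrc1 rose by 0.70 (SE 0.17, adjusted p = 0.017), from 9.32 to 10.18 in wild types to 10.45 to 11 in null mice. The scavenger receptor Cd163 fell (-1.10, SE 0.30, adjusted p = 0.0301) and the complement gene C1qc rose (0.77, SE 0.21, adjusted p = 0.0313). The call of Cd163 was lost without null mouse 2, 3 or 5 or wild-type mouse 1, 2, 3 or 4 (adjusted p 0.053 to 0.0719). That of C1qc was lost without null mouse 1 or 3 or wild-type mouse 1, 3 or 5 (adjusted p 0.054 to 0.0672). The defining genes Adgre1 (0.41), Csf1r (0.33) and Ptprc (0.81), and Lyz2 (0.33), the brightest marker, were not called.

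Interferon and RNA sensing genes were largely dim, and 15 of the 32 on the array passed the floor. Of these, 7 rose and none fell (46.7% called beside 16.3% of all genes, median 0.26). A gene that passed only through the null mice had to differ, so the share is a description. Ifih1, the cytosolic RNA sensor MDA5, read 7.39, 7.46, 7.14, 6.61 and 6.22 in null mice and 5.74, 5.71, 5.2, 5.79 and 5.68 in wild types (1.34, SE 0.23, adjusted p = 0.00295). The antiviral membrane protein Ifitm3 was bright, at 12.39 to 13.09 against 11.72 to 12.15 (0.71, SE 0.12, adjusted p = 0.0032). Iigp1 (1.13, SE 0.28) and Ifit2 (0.99, SE 0.22), an interferon-induced GTPase and a tetratricopeptide protein, lay close to the floor, and the call of Iigp1 was lost without null mouse 3 (1.08, adjusted p = 0.0503) or null mouse 4 (1.03, 0.0513). Xaf1 (0.58), Irf9 (0.51) and Gbp2 (0.40) rose less. The sensors and kinases Ddx58 (0.16) and Eif2ak2 (0.04) were not called. The count was 3 without null mouse 3 and 4 without null mouse 1 or 4 or wild-type mouse 1, 3 or 4.

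Few markers of other resident cell types were called. None of 25 endothelial and mural markers was called with all mice (0.0% beside 16.3% of all genes), and 1 was higher without null mouse 5. Their mean log2 level was 8.734 to 9.215 in null and 8.754 to 8.945 in wild-type mice. The brightest, the pericyte gene Rgs5, stood at 12.89 to 13.24 in null and 12.98 to 13.06 in wild-type mice. Of 15 adipocyte markers, 1 fell (6.67% called beside 16.3% of all genes). This was Lpin1, a phosphatidate phosphatase that fibres express too (-1.06, SE 0.09, adjusted p = 4.61e-05). Fabp4 (0.14) and Adipoq (0.25) were not called, and the list's mean level ran from 7.914 to 9.489 in null and from 8.446 to 9.836 in wild-type mice. The platelet gene Pf4 was the 1 blood marker that could be tested (0.55, adjusted p = 0.0642). It was called without null mouse 5 (0.67, adjusted p = 0.0238) and without wild-type mouse 4 (0.65, adjusted p = 0.0426). The Y-linked genes of all males were even, with Eif2s3y at 11.34 to 11.85 in null and 11.20 to 11.60 in wild-type mice.

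**Figure D5:**
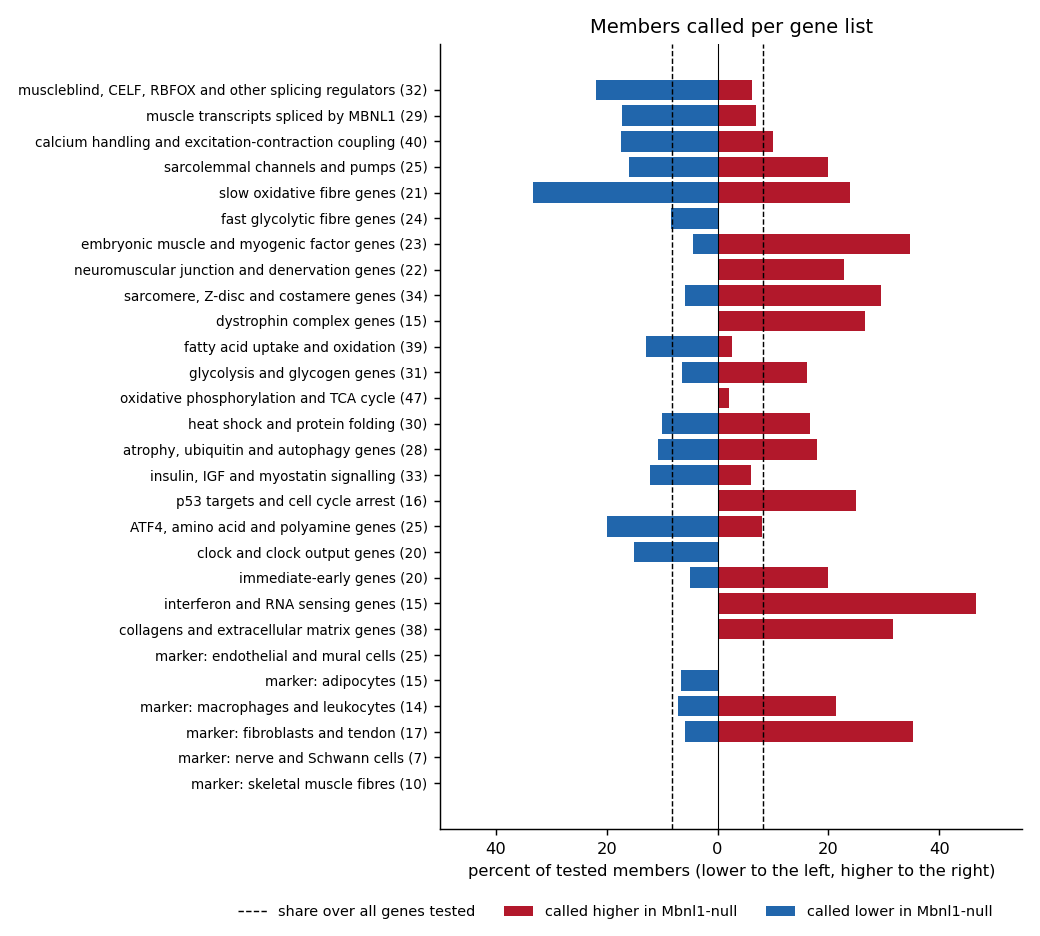
Percent of the tested members of each gene list called higher (red, right) and lower (blue, left) in Mbnl1-null muscle, with the number tested in brackets and dashed lines at the shares over all genes tested, 8.12% and 8.19%. Slow fibre genes have the longest bar to the left (7 of 21), interferon genes the longest to the right (7 of 15), and endothelial, nerve and muscle fibre markers have no called member.

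The metabolic lists differed in their share of calls. Among 47 tested genes of the respiratory chain and TCA cycle, 1 was called, the complex I subunit Ndufb3 (0.36, SE 0.07, adjusted p = 0.00595), 2.13% beside 16.3% of all genes, and the median was 0.02. Without null mouse 5, 2 members were called lower, and without null mouse 1, 2 were called higher. Among 39 tested genes for the uptake and oxidation of fatty acids, 5 were lower and 1 higher (15.4% called, median -0.13). Perilipin 5 (Plin5), a lipid droplet protein of oxidative fibres, read 7.35, 7.33, 7.36, 7.77 and 9.44 in null mice and 8.97 to 9.98 in wild types (-1.48, SE 0.38, adjusted p = 0.0208). Null mouse 5 lay within the wild types, and the call was lost without null mouse 3 (adjusted p = 0.0546) or wild-type mouse 2 (0.0547). The fatty acid transporter Slc27a1 (-0.66, SE 0.12), the beta-oxidation genes Hadhb (-0.39, SE 0.09) and Acadm (-0.32) and lipoprotein lipase (Lpl, -0.34) fell, and the coactivator Ppargc1b rose (0.85, SE 0.18). Another tested probe set of Hadhb was not called (-0.34). Without null mouse 5 the decreases numbered 10, and without null mouse 5 or wild-type mouse 4 the increases numbered 2.

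Among 31 genes of glycolysis and glycogen, 5 rose and 2 fell (22.6% called beside 16.3% of all genes, median -0.03). Pfkfb3, which makes the allosteric activator of phosphofructokinase, read 10, 9.71, 10.73, 10.83 and 9.84 in null mice and 11.46, 12.06, 12.11, 10.76 and 12.54 in wild types (-1.57, SE 0.33, adjusted p = 0.00825). It overlapped only through wild-type mouse 4, and a further probe set gave -1.59. Fbp2, the muscle fructose bisphosphatase, rose from 8.46 to 9.31 in wild types to 9.33 to 10.98 in null mice (1.29, SE 0.28, adjusted p = 0.0088). Also higher were Gbe1, the glycogen branching enzyme (0.73, SE 0.12), the muscle glycogen synthase Gys1 (0.71) and Gys2 (1.86, SE 0.46), the liver form, which reached the floor in 1 of 5 wild types and lost the call without wild-type mouse 2 (1.73, adjusted p = 0.0501). The glucose transporter Slc2a1 (0.68) rose, and Slc2a4 (0.03), Hk2 (0.02), Pfkm (-0.14), the phosphorylase kinase subunit Phka1 (-0.38) and the glycogen phosphorylase Pygm (-0.21) were not called. The decreases numbered 4 without null mouse 1.

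Heat shock genes went both ways, with 5 of 30 tested higher and 3 lower (26.7% called beside 16.3% of all genes, median -0.05). Hspa2, an HSP70 chaperone, read 9.55, 8.96, 9.28, 9.04 and 8.75 in null mice and 6.88, 7.14, 6.95, 7.44 and 6.57 in wild types (2.12, SE 0.18, 4.35-fold, adjusted p = 4.34e-05). Hspb7, a small heat shock protein of striated muscle, rose from 11.47 to 11.86 to 12.18 to 13.71 (1.41, SE 0.23, adjusted p = 0.00221), and Hspb3 (0.78), Dnaja4 (0.75) and Hspb6 (0.43) rose less. The cochaperone Dnaja1 fell (-1.36, SE 0.26, adjusted p = 0.0049), as did Chordc1 (-0.50). Hsp90aa1 was called at -0.90 (adjusted p = 0.0477) and kept the call only without null mouse 2 or wild-type mouse 5 among the 10 fits without 1 mouse, with adjusted p of 0.0609 to 0.11 in the other 8. The inducible genes Hspa1a (-1.22) and Hspb1 (0.75) were not called. The decreases numbered 8 without null mouse 2 and 1 without null mouse 1, 3, 4 or 5 or wild-type mouse 2, 3 or 4, and the increases 3 without null mouse 3 or 4 or wild-type mouse 1, 2, 3 or 4.

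Atrophy genes were not a uniform group: 5 of 28 rose and 3 fell (28.6% called beside 16.3% of all genes, median 0.05). The ubiquitin ligases Fbxo32 (0.45) and Trim63 (0.40), the standard markers of atrophy, were not called. Besides Uchl1 and Sesn1, the increases were sestrin 3 (Sesn3, 0.95, SE 0.24, adjusted p = 0.0185), Foxo3 (0.51) and the metallothionein Mt2 (1.51, adjusted p = 0.0492), whose call was kept only without null mouse 3 or wild-type mouse 4 among the 10 fits without 1 mouse, with adjusted p of 0.0603 to 0.095 in the other 8. The decreases were Fbxo31 (-0.70, SE 0.16), Fbxo30 (-0.50) and Trim54 (-0.37). Another probe set of Fbxo31 had the opposite sign (0.34) and was not called. The increases numbered 2 without null mouse 1 or wild-type mouse 3 or 5, and 3 without null mouse 2, 4 or 5 or wild-type mouse 2 or 4.

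Insulin, IGF and myostatin signalling held 4 decreases and 2 increases among 33 tested (18.2% called, near the 16.3% of all genes, median 0.09). Igfbp5, a binding protein for insulin-like growth factors, read 12.61, 11.72, 12.54, 12.25 and 11.62 in null mice and 13.72, 13.47, 13.71, 13.24 and 13.64 in wild types (-1.41, SE 0.19, adjusted p = 0.000797). Smad3, which carries myostatin and TGF-beta signals, read 9.86 to 10.47 against 11.16 to 11.31 (-1.15, SE 0.11, adjusted p = 8.02e-05). Acvr2a, an activin type II receptor, read 9.95 to 10.50 against 11.09 to 11.62 (-1.10, SE 0.12, adjusted p = 0.000165), and the docking protein Irs1 read 11.14 to 11.94 against 12.05 to 12.65 (-0.81, SE 0.15, adjusted p = 0.00457). No null mouse reached a wild type in any of the 4. Other probe sets of Igfbp5 (-1.70), Smad3 (-2.54 and -1.17) and Acvr2a (-1.13) were called too. Igf1 (-0.60), Insr (0.17) and Acvr2b (-0.11) were not called. The increases numbered 5 without null mouse 5 and 1 without wild-type mouse 2.

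Among ATF4, amino acid and polyamine genes, 5 of 25 fell and 2 rose (28.0% called beside 16.3% of all genes, median -0.04). Slc38a4, a sodium-coupled transporter of neutral amino acids, read 9.74, 9.86, 8.42, 9.35 and 8.44 in null mice and 11.39, 12.34, 11.30, 11.96 and 11.24 in wild types (-2.48, SE 0.32, adjusted p = 0.000557). Smox, spermine oxidase, read 10.59 to 11.90 against 12.14 to 13.51 (-1.79, SE 0.33, adjusted p = 0.00409), and Sat1, which acetylates spermidine and spermine for export, read 11.16 to 11.55 against 9.79 to 10.28 (1.26, SE 0.11, adjusted p = 4.61e-05). Smox and Sat1 thus moved in opposite directions, both without overlap. Atf4 (-0.38), Atf5 (-0.51) and Psph (-0.40) fell, and the stress-induced factor Atf3 was called at 1.77 (SE 0.49, adjusted p = 0.0311). Its null mouse 1 (7.41) lay within the wild types (6.86 to 7.56), and its call was lost without null mouse 3 or 4 or any 1 of the wild types (adjusted p 0.0512 to 0.0678). Asns (-0.23), Ddit3 (0.10) and Odc1 (-0.45) were not called. The decreases numbered 3 without wild-type mouse 1 or 2, and the increases 1 without null mouse 3 or any 1 of the wild types.

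Of 20 clock genes tested, 3 fell and none rose. The share called in either direction was just under the 16.3% of all genes, and the share that fell was above the 8.19% of all genes. The median change of the clock genes was -0.12. Ciart, a repressor of the clock's activators, read 6.65, 5.68, 5.71, 6.87 and 5.43 in null mice and 8.10, 8.27, 7.05, 7.59 and 7.83 in wild types (-1.70, SE 0.31, adjusted p = 0.00395). The nuclear receptor Rora fell by 0.42 (SE 0.10), with 5 other probe sets called at -0.90 to -0.42, and Per2 by 0.61 (adjusted p = 0.0286), a call lost without null mouse 5 or wild-type mouse 1, 3 or 4 (adjusted p 0.0509 to 0.0659). Dbp (-0.51), Nr1d1 (0.10) and Arntl (0.15) were not called, and the labels give no hour of collection. Of 20 immediate-early genes, 4 rose (Rrad, Atf3, Ccn1 and Ccn2) and 1 fell (25.0% called beside 16.3% of all genes). The median change of these genes was -0.16. The nuclear receptor Nr4a2 was under the floor in all null mice (3.52 to 4.74) and at 5.01 to 8.23 in wild types, which is at least 2.41-fold lower (adjusted p = 0.0169). Rrad passed the filter only through the null mice and Nr4a2 only through the wild types, so both had to differ. Ccn1, a matricellular growth regulator, rose by 0.64 (SE 0.17), a call lost without wild-type mouse 2 (adjusted p = 0.0523), and Fos (-0.12) and Egr1 (-0.75) were not called. The increases numbered 2 without null mouse 3 or 4 or any 1 of the wild types, and the decreases 2 without null mouse 1 or 2 or wild-type mouse 1 or 5.

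Other large increases fell outside the lists. Cpne2, a copine that binds membranes in the presence of calcium, read 10.19, 9.69, 8.92, 9.43 and 8.89 in null mice and 6.75, 5.94, 5.67, 6.32 and 4.98 in wild types (3.49, SE 0.33). Lrp2bp, a protein that binds the receptor megalin, read 11.27, 10.47, 10.74, 11.03 and 10.47 against 7.95, 7.14, 7.91, 8.26 and 6.93 (3.16, SE 0.26). Both were called (adjusted p = 7.6e-05 and 4.07e-05), with every null mouse above every wild type. Plekho1, a pleckstrin homology protein that binds casein kinase 2, was steady in wild types at 6.63 to 6.83 and read 8.75 to 10.08 in null mice (2.65, SE 0.20, adjusted p = 2.34e-05). Tceal7, of the elongation factor A-like family, rose from 8.94 to 11.01 to 11.35 to 13.54 (2.69, SE 0.45). Prune2 (3.06, SE 0.47) and Fam171b (2.83, SE 0.40) reached the floor in all null mice, but in 3 and 1 of 5 wild types, so the size of their change rests partly on values under it. Keratin 18 (Krt18), an intermediate filament of simple epithelia, was under the floor in all wild types (2.60 to 4.19) and at 5.05 to 7.45 in null mice, at least 1.94-fold higher (adjusted p = 0.00183). It passed the filter only through the null mice and so had to differ.

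Other large decreases were as distinct. Vamp1, a vesicle SNARE of synapses, read 4.71, 5.55, 5.78, 5.49 and 5.36 in null mice and 8.36, 8.25, 8.39, 8.60 and 8.83 in wild types (-3.11, SE 0.19, adjusted p = 4.92e-06). Mettl11b, an N-terminal methyltransferase, read 6.09 to 7.29 against 9.34 to 10.17 (-3.01, SE 0.23, adjusted p = 2.34e-05). The groups were more than 2 log2 units apart in both. The pseudogene Hmga2-ps1 read 7.75, 4.69, 4.87, 6.65 and 5.52 against 9.63 to 10.70 (-4.26, SE 0.53, adjusted p = 0.000393), and whether its probes also bind its parent gene is not known here. Slc15a5 (-2.73, SE 0.45), a solute carrier of the peptide transporter family, and Mfsd4b1 (-2.43, SE 0.21), of the major facilitator superfamily, fell to near the floor, with 2 and 3 null mice under it. Igha, the immunoglobulin A heavy chain, read 4.33 to 6.76 against 6.81 to 9.80 (-3, SE 0.61, adjusted p = 0.00686), and a second probe set was called at -2.49. Nudt6, a nudix hydrolase gene that overlaps the growth factor gene Fgf2 on the opposite strand, read 4.62 to 7.04 against 8.48 to 8.84 (-2.73, SE 0.37, adjusted p = 0.000699). Its other probe set was not called and had the opposite sign (0.19, adjusted p = 0.231), so the direction of Nudt6 rests on the choice of probe set.

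The same genes were read in 3 other mouse models of the series, in experiments with their own wild types and with a pair of arrays per mouse. Lines 20b and 41 are FVB mice of 6 months that express an expanded CUG repeat RNA (CUGexp, 6 mice each, with 6 shared wild types), and Clcn1-null mice of 3 months have a BALB background (3 mice and 3 wild types). Of 12955 genes tested in the lines, 19.8% were called in line 20b (9.05% higher, 10.7% lower) and 9.44% in line 41 (3.97% higher, 5.47% lower). Of 13244 tested in Clcn1-null mice, 5.8% were called (2.43% higher, 3.37% lower). The filter on low values and the number of mice differed there, so these shares have another base than the 16.3% of 8965 genes in Mbnl1-null mice. Intensities of the experiments are on different scales, so values stand side by side and no difference between models was tested.

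Slow isoforms were lower in the Clcn1-null mice and not called in the repeat lines. Myh7 changed by -4.11 in Clcn1-null mice (SE 0.75, adjusted p = 0.0308), and by 0.64 and 1.10 in lines 20b and 41 without a call. Tnnc1 had -2.44, 0.57 and 1.38 in that order, Tnnt1 -1.76, 0.58 and 0.99, Tpm3 -3.35, 0.11 and 0.78, and Atp2a2 -2.29, 0.04 and 0.40. Each of the Clcn1-null values was called. Sln was called higher in all 3, at 7.34 in line 20b, 6.91 in line 41 and 4.00 in Clcn1-null mice. Kcnab1 was called lower in all 3, at -4.68, -2.02 and -2.05, as was Pdlim7, at -2.01, -0.86 and -1.49.

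Several of the increases were called in the repeat lines and not in Clcn1-null mice, where 3 mice were compared with 3 wild types. Eda2r had 3.28 in line 20b, 2.36 in line 41 and -0.19 in Clcn1-null mice, Rrad 3.10, 3.80 and 0.53, and Plekho1 3.61, 2.81 and 0.48. Cdkn1a had 1.5, 1.13 and 0.13, Hspa2 1.78, 1.23 and 0.26, and Myl4 1.26, 1.59 and -0.18. Each line value in these was called and no Clcn1-null value was. Other increases were called in both lines and in Clcn1-null mice: Myh3 (1.06, 1.29 and 3.13), Mustn1 (2.88, 2.52 and 1.86), Hspb7 (1.76, 1.00 and 1.92) and Cilp (4.08, 2.92 and 1.84). Prune2 (1.65) and Atp1b4 (1.16), called in both lines, had these changes in Clcn1-null mice without a call. Vamp1 had called decreases of -1.51 and -0.73 in the lines and 0.13 in Clcn1-null mice. Lrp2bp was called in opposite directions, at 2.83 and 1.65 in the lines and -3.31 in Clcn1-null mice, and Mettl11b was called lower in all 3, at -1.61, -0.96 and -8.58. Ifih1, Ifit2 and Ifitm3 were called in none of the 3. Their changes lay between -0.34 and 0.41. Iigp1 was lower in line 20b (-1.24, adjusted p = 0.024), where null mice had 1.13. Postn was not called in the lines (-0.33 and -0.70) and rose in Clcn1-null mice (1.61, adjusted p = 0.00708).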

How the data were processed

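The authors summarised each probe set as a linear intensity with GCRMA, per the submitters' processing notes, with the version and settings not given in the sources used here. Per the labels' protocols, Tri-Reagent gave the RNA, and the cRNA carried biotin. The deposited intensities were put on the log2 scale here with no further normalisation. Of 45037 probe sets, 34945 had 1 gene symbol in the supplied platform annotation, 932 several and 9160 none. Each of 18193 genes was read from its brightest probe set, by the mean of the 3 experiments. A gene was tested when it reached log2 5 on at least 5 arrays (8965 genes).

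The 10 arrays were fitted alone with limma 3.58.1 in R 4.3.3 (lmFit, eBayes with a trend, no covariate, two-sided, Benjamini-Hochberg). The other experiments were fitted in the same way, each alone. The fit was tested on simulated data. A group entirely under the floor gives a fold as a lower bound against the floor.

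Members and gene lists were chosen with earlier results of these data known, and lists cannot support them independently. Named genes were Mbnl1 to Mbnl3, Clcn1, Acta1, the 15 largest called increases and decreases without clone identifiers, up to 4 called members per list with the largest change, and the brightest marker of each marker list. Other members stand with their change only and were picked from the lists after their values were seen. Alternatives were other normalisations, filters, probe sets, offsets, weights, eBayes settings and thresholds, the mouse number as a block, and fits without 1 mouse each. Leaving out null mice 1 and 4, or both mice 5, was added after seeing the data. Arrays give no counts, and their number limits the precision.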

Additional observations from a re-analysis of the deposited data

Results flagged for a closer look

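For groups of 5 mice, a value was singled out where its gap to the nearest mouse exceeded 0.71 of the group's range. Of 276 groups checked, 17 had such a mouse. Chance gives about 1 in 20, so this count is near the chance rate, and the groups share mice. Null mouse 1 was high for Sln (log2 level 14.37, others 10.89 to 11.02), Cdkn1a (11.43, others 9.79 to 10.24), C1qc (9.59, others 8.77 to 8.92), Mrc1 (11, others 10.45 to 10.59) and Lyz2 (12.76, others 11.68 to 11.92), and low for Meg3 (10.32, others 11.16 to 11.47). It was also high in the mean level of the atrophy list (11.47, others 11.05 to 11.15). Wild-type mouse 1 was low for Meg3 (8.78, others 9.59 to 9.87) and in the mean level of the interferon list (7.57, others 7.753 to 7.797). It was high in the mean level of the atrophy list (11.19, others 10.72 to 10.85) and of the calcium handling list (11.61, others 11.48 to 11.51). Null mouse 5 was high for Plin5 (9.44, others 7.33 to 7.77) and low for Col14a1 (8.48, others 9.54 to 9.83) and Iigp1 (5.68, others 6.69 to 7.09), and its array had the highest median intensity (11.62, others 9.559 to 10.05). Null mouse 2 was high for Hsp90aa1 (12.69, others 11.22 to 11.56). Wild-type mouse 3 was low for Ifih1 (5.2, others 5.68 to 5.79).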

How the results depend on the processing

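Of 98 named genes that were called, 76 kept call and sign under all 23 alternatives, and 16 lost the call without 1 mouse, as given beside them above. With arrays shifted to a common median, Mbnl2 (adjusted p = 0.144), Lama2 (0.0721) and Tmod4 (0.0887) lost the call and Pf4 (0.0256) gained it. Quantile normalisation lost Mbnl2 (0.0549) and Lama2 (0.0561) and gained Pf4 (0.025). Among others, Sesn3 (0.0847) and Mrc1 (0.0673) were lost without null mice 1 and 4 together, and Pdlim3 (0.0537) without both mice 5. The called genes numbered 1462. In the fits without 1 mouse they ran from 1049 (without wild-type mouse 2) to 1631 (without null mouse 5). Testing every probe set separately called 2384 probe sets (1041 higher and 1343 lower). An adjusted p under 0.01 left 659, and a 2-fold minimum left 287. Array weights called 1154 genes higher and 939 lower. Higher calls made up 49.8% of all calls, 55.1% with array weights, 58.7% without null mouse 5 and 44% without null mouse 3. The median change of all genes moved by less than 0.1 in every alternative. Nudt6 reversed to 0.19 (adjusted p = 0.225) with its probe set brightest in experiment 3, by the choice of probe set itself.

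A replicate block on the mouse numbers called 1839 genes, 887 higher and 952 lower. The labels do not say that numbers pair mice. The deviations of equal numbers correlated at 0.125, 0.109, 0.028, 0.233 and 0.423, and 3 of the 5 null arrays correlated best with the wild-type array of their own number. Because number 3 stayed under 0.1, the numbers were not taken as pairs, which does not show that no mice share a batch. Under the block, C1qc (adjusted p = 0.0609), Lama2 (0.0699), Mbnl2 (0.054) and Mt2 (0.0563) were not called, and Eif2s3y was (0.0487). Leaving out null mice 1 and 4 together left 1053 calls, with 7 matrix genes higher (12 with all mice), 3 interferon genes higher (7), 3 splicing regulators lower (7), 16 sarcomere and Z-disc genes higher (10), 1 atrophy gene higher (5) and 1 macrophage marker higher (3). Without both mice 5 the calls numbered 1434, with 6 sarcomere and Z-disc genes higher and 10 fatty acid genes lower. Probes under the floor, such as those of Mbnl3, cannot show a change.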

Other observations

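A few genes of immune cells outside the lists were chosen after their values were seen, and they stand for no group. The listed macrophage and leukocyte markers had 3 increases and 1 decrease. Ighm, the heavy chain of immunoglobulin M, read 11.29, 10.89, 11.54, 11.76 and 10.95 in null mice and 13.22, 13.52, 13.27, 13.30 and 13.29 in wild types (-2.04, SE 0.15, limma), beside the decrease of Igha. Retnla, a product of alternatively activated macrophages and of fat, read 9.19, 8.98, 9.15, 8.20 and 9.06 against 10.84, 11, 11.17, 11.01 and 10.81 (-2.05, SE 0.17). Neither overlapped between the groups. The C-type lectin genes Cd209f (-1.81, SE 0.37) and Cd209g (-1.75, SE 0.29) were called lower as well, the former with overlap through wild-type mouse 1 and null mouse 2, while Lyve1 (0.00) and Folr2 (0.03), markers of resident macrophages, were not called.

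Genes near Mbnl1 on chromosome 3 were counted by their order in the RefSeq annotation (GRCm38.p6). Of the 20 tested genes before Mbnl1 in chromosome order, 7 were called (35.0%: 4 higher, 3 lower), among them Postn. Of the 20 after it, 3 were called (1 higher, 2 lower), among them Kcnab1, the eighth of them. Of the 425 other tested genes of the chromosome, 80 were called (18.8%).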
